A study of Danio rerio with 12 samples.

Results

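The forkhead genes were taken as the rows of the deposited tables whose gene name begins with *fox*, a letter and a digit, and 53 genes met this rule among 22976 genes listed in either table. The table of the *hand2* mutant experiment held 52 of them, the table of the *hand2* overexpression experiment held 48, and 47 stood in both. All were annotated as protein coding. *foxa*, *foxred1* and *foxred2* fell outside the rule.

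Forkhead proteins are transcription factors that bind DNA through a winged-helix domain, and their subfamilies carry letters (FoxA, FoxC and so on). Some act in single germ layers or organs, such as FoxA factors in endoderm and axial mesoderm and FoxC and FoxF factors in mesoderm and mesenchyme, whereas FoxO, FoxK and FoxP factors are made in many cell types. In the early mouse heart, FoxC factors are known from endocardial and second heart field cells, FoxF factors from splanchnic mesoderm next to the heart, FoxP1 and FoxP4 from the myocardium, and Foxh1 as the DNA-binding partner of Smad2 in Nodal signaling. Zebrafish carry duplicates of many of these genes, named a and b.

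RNA was measured in fluorescent *myl7* reporter-positive cells sorted from embryos at 20 hours post-fertilization (hpf), in 4 groups of 3 libraries. The reporter was *Tg(myl7:*EGFP*)* in the mutant experiment, and the sources name both an EGFP and an mCherry reporter for the overexpression experiment. In the loss-of-function experiment, *hand2 FLD*-/- embryos, homozygous for a deletion of the full *hand2* locus, were set against *hand2 FLD*+/? siblings, a group of WT and heterozygous embryos that the labels also call WT. In the gain-of-function experiment, *hand2* OE embryos, which carry a transgene that places *hand2* and EGFP behind the *myl7* promoter and keep their own *hand2* gene, were set against WT siblings. The *myl7* promoter acts in differentiating cardiomyocytes, so that it reaches these cells only once they differentiate, and how many embryos made up a library is not given in the sources used here.

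*hand2* itself stood at 2228, 2336 and 2380 normalized read counts in the *hand2 FLD*+/? libraries and at 149, 427 and 45 in *hand2 FLD*-/-, so that replicate 2 of the mutants held the highest remainder. It stood at 1671, 1667 and 1611 in WT and at 2159, 1939 and 2102 in *hand2* OE. *myl7* ranged between 1627 and 2313 across all 12 libraries, and none of the 9 cardiomyocyte markers found in each table was listed at 0 in a whole experiment. Their summed value was 17436 to 18219 in *hand2 FLD*+/?, 12166 to 12948 in *hand2 FLD*-/-, 21064 to 21727 in WT and 19229 to 21685 in *hand2* OE. In the mutants limma called 1 of the 9 down (*myh6*, -2.37) and none up, with 6 at an unadjusted p under 0.05. Others, such as *actn2b* (-0.56, limma adjusted p = 3.4e-05), were lower by less than 1.5-fold, and the median of the 9 was -0.24. In *hand2* OE limma called none, with 2 at an unadjusted p under 0.05. The lowest limma adjusted p of the 9 there was 0.0041, for a difference of -0.43 that was under the fold threshold. Depth was estimated, as an approximate value, at 5035186 to 7658447 reads per library. A value is a read count scaled by the authors within its experiment and rounded, so that levels are not compared between genes, which differ in length.

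A gene was tested where its mean in the 6 libraries of an experiment was at least 5 normalized counts, and it was called where limma's adjusted p was 0.05 or less and the fold change at least 1.5. Fold changes are on the log2(value + 1) scale with their standard errors (SE), n = 3 per group, and adjusted p-values are Benjamini-Hochberg over all genes tested in the experiment. With 3 libraries against 3, an exact two-sided permutation test of a single gene cannot go below p = 0.1, which is its value for every gene whose groups do not overlap. The gene lists and marker lists below were chosen with earlier results of these data known. Their counts are to be read beside the shares of all genes called. These were 9.09% up and 9.43% down in the mutants and 2.53% up and 1.57% down in *hand2* OE. No such share was taken at an unadjusted p under 0.05, so counts at that level have no background beside them. An adjusted p is never below its unadjusted p, so at least 5292 of the 17877 genes tested in the mutants reached that level.

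In *hand2 FLD*-/- cells, 11 of the 44 forkhead genes tested were called, 25.0%, against 18.5% of all genes tested. Of these, 6 rose (*foxi2*, *foxa3*, *foxi1*, *foxc1a*, *foxo1a* and *foxm1*), against a background of 9.09% of genes called up, and 5 fell (*foxf2a*, *foxf1*, *foxh1*, *foxp1b* and *foxc1b*), against 9.43% called down. Another 3 passed the adjusted p alone, and 22 had an unadjusted p under 0.05. By the adjusted p alone 14 of the 44 passed, against 5292 of the 17877 genes tested. Those shares lie closer together than the shares called with the fold threshold. Mutant and sibling values did not overlap in 21 of the 44, 47.7%, against 44.3% of all genes. The mutants stood above in 13 of these, where the background is 22.0% of genes, and below in 8, where it is 22.3%. The median log2 fold change of the 44 was 0.35, against 0.0032 over all genes, with single values from -5.64 to 6.67. Without mutant replicate 2, which held the most *hand2* of the mutants, 5 forkhead genes were called up and 4 down. Because these are bulk libraries, fewer cells of a type and less RNA per cell cannot be told apart.

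In *hand2* OE cells, 4 of 39 tested forkhead genes were called, 10.3%, against 4.1% of all genes. *foxf2a*, *foxp3b* and *foxp1b* rose, against 2.53% of genes called up, and *foxn3* fell, against 1.57% called down. Another 2 passed the adjusted p alone, which made 6 of the 39, and 11 had an unadjusted p under 0.05. The count of all genes by the adjusted p alone is given in the last section. *hand2* OE and WT values did not overlap in 10 of the 39, 25.6%, against 26.1% of all genes. *hand2* OE stood above in 6, against a background of 13.1%, and below in 4, against 12.9%. The median log2 fold change was 0.15. Each of the 4 calls depended on the settings. None was called when limma's trend of variance on abundance was left out, where 9 of the 39 had an unadjusted p under 0.05, and between 1 and 3 forkhead genes were called when a single library was omitted.

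The values of all forkhead genes summed to 11717 to 11803 normalized counts in *hand2 FLD*+/? and 11969 to 12365 in *hand2 FLD*-/-, ranges that did not overlap. In the gain-of-function experiment it was 9101 to 9912 in WT and 9203 to 10164 in *hand2* OE, which overlapped. A total of 38 forkhead genes had a test in each experiment. Of these, 13 were called in at least 1 experiment and 2 in both, *foxf2a* and *foxp1b*, which fell in *hand2 FLD*-/- and rose in *hand2* OE. No forkhead gene was called in the same direction in both, and none rose in the mutants and fell on overexpression. The share of all genes called in both experiments is not given here, so these counts have no background beside them.

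**Figure D1:**
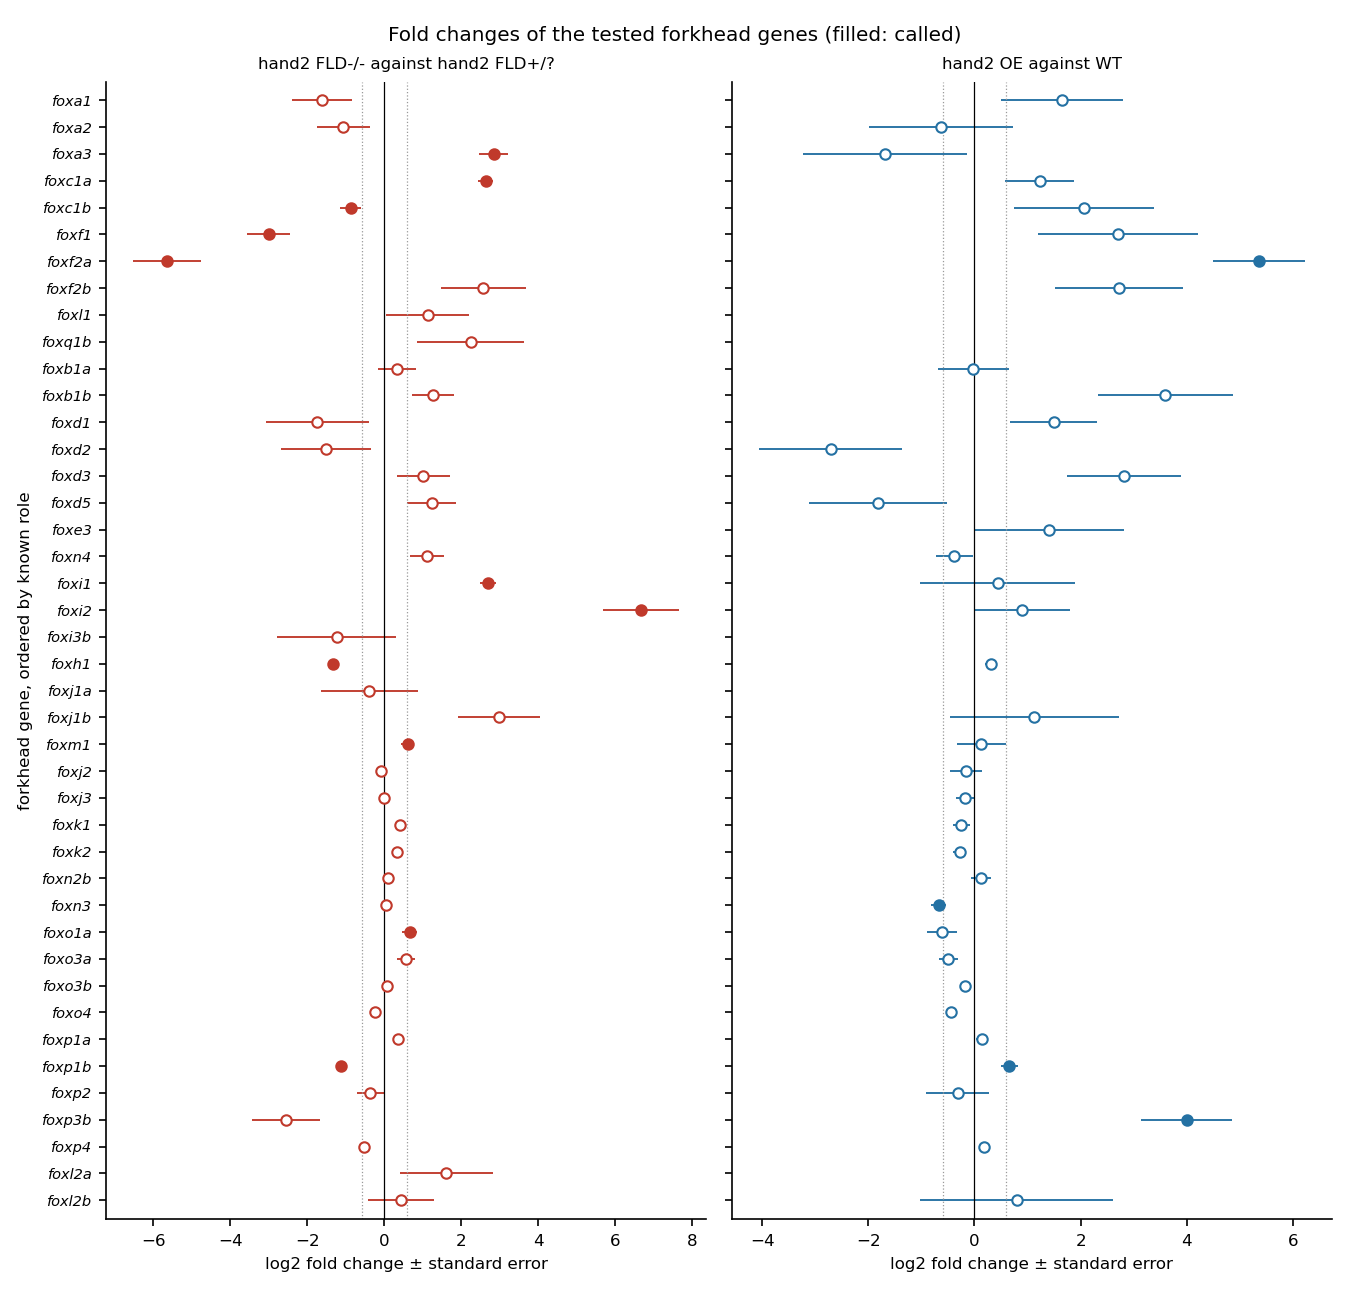
Log2 fold change (log2 of value + 1, horizontal axis, bars are standard errors from limma, n = 3 per group) of the tested forkhead genes reported here (vertical axis, ordered by known role), with the mutant experiment on the left and overexpression on the right, filled points for called genes and dotted lines at a fold change of 1.5. The mutant values run from -5.64 for *foxf2a* to 6.67 for *foxi2*, while *foxf2a* is at 5.36 on overexpression.

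The FoxF genes held the steepest fall of the family in the mutants. *foxf2a* (ENSDARG00000017195, chromosome 2, 713080 to 716426 in danRer11, the build of all positions given here) encodes a factor of mesenchyme and, in zebrafish, of the mural cells around vessels. It stood at 246, 256 and 211 normalized counts in the *hand2 FLD*+/? libraries and at 17, 5 and 0 in *hand2 FLD*-/-. Every mutant library lay far below every sibling library, with means of 238 and 7.33, a ratio of 32.4. The log2 fold change was -5.64 (SE 0.87, limma adjusted p = 0.00122), and it ran from -6.60 to -4.52 when mutant replicate 1 or 3 was left out. In WT, *foxf2a* stood at 11, 6 and 0, and in *hand2* OE at 180, 219 and 144. The groups lay apart here too, in the opposite direction, with means of 5.67 and 181. On the log2 scale the rise was 5.36 (SE 0.87, adjusted p = 0.00936), which was 4.29 without WT replicate 3, and the call was lost without *hand2* OE replicate 2 (adjusted p = 0.0540).

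*foxf1* (ENSDARG00000015399, chromosome 18, 30847237 to 30850365), which in mouse is needed in lateral plate and visceral mesoderm, fell as well. Its values were 180, 174 and 221 in *hand2 FLD*+/? and 8, 55 and 26 in *hand2 FLD*-/-. The groups did not overlap. Replicate 2, the mutant library with the most *hand2*, was also the mutant library with the most *foxf1*, whereas *foxf2a* was highest in mutant replicate 1. The fall of *foxf1* was -3.0 on the log2 scale (SE 0.56, limma adjusted p = 0.00355). It was -3.62 without mutant replicate 2 and -2.30 without mutant replicate 1. In the other experiment *foxf1* was near the floor, at 9, 0 and 0 in WT and at 31, 43 and 1 in *hand2* OE. The last *hand2* OE library lay among the WT values, and the difference of 2.71 (SE 1.51, adjusted p = 0.356) was not called.

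*foxf2b* (chromosome 20, 26690036 to 26692944), the duplicate of *foxf2a*, did not share its fall. It stood at 14, 30 and 0 in *hand2 FLD*+/? and at 62, 42 and 35 in *hand2 FLD*-/-. All mutant values lay above all sibling values, but the difference of 2.57 (SE 1.1, limma adjusted p = 0.114) was not called. It was called without *hand2 FLD*+/? replicate 2 (adjusted p = 0.0415), and the log2 difference was 1.09 without replicate 3. Its values in WT were 0, 0 and 7, and in *hand2* OE 5, 20 and 17, overlapping groups with a difference of 2.72 (SE 1.21, adjusted p = 0.243).

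**Figure D2:**
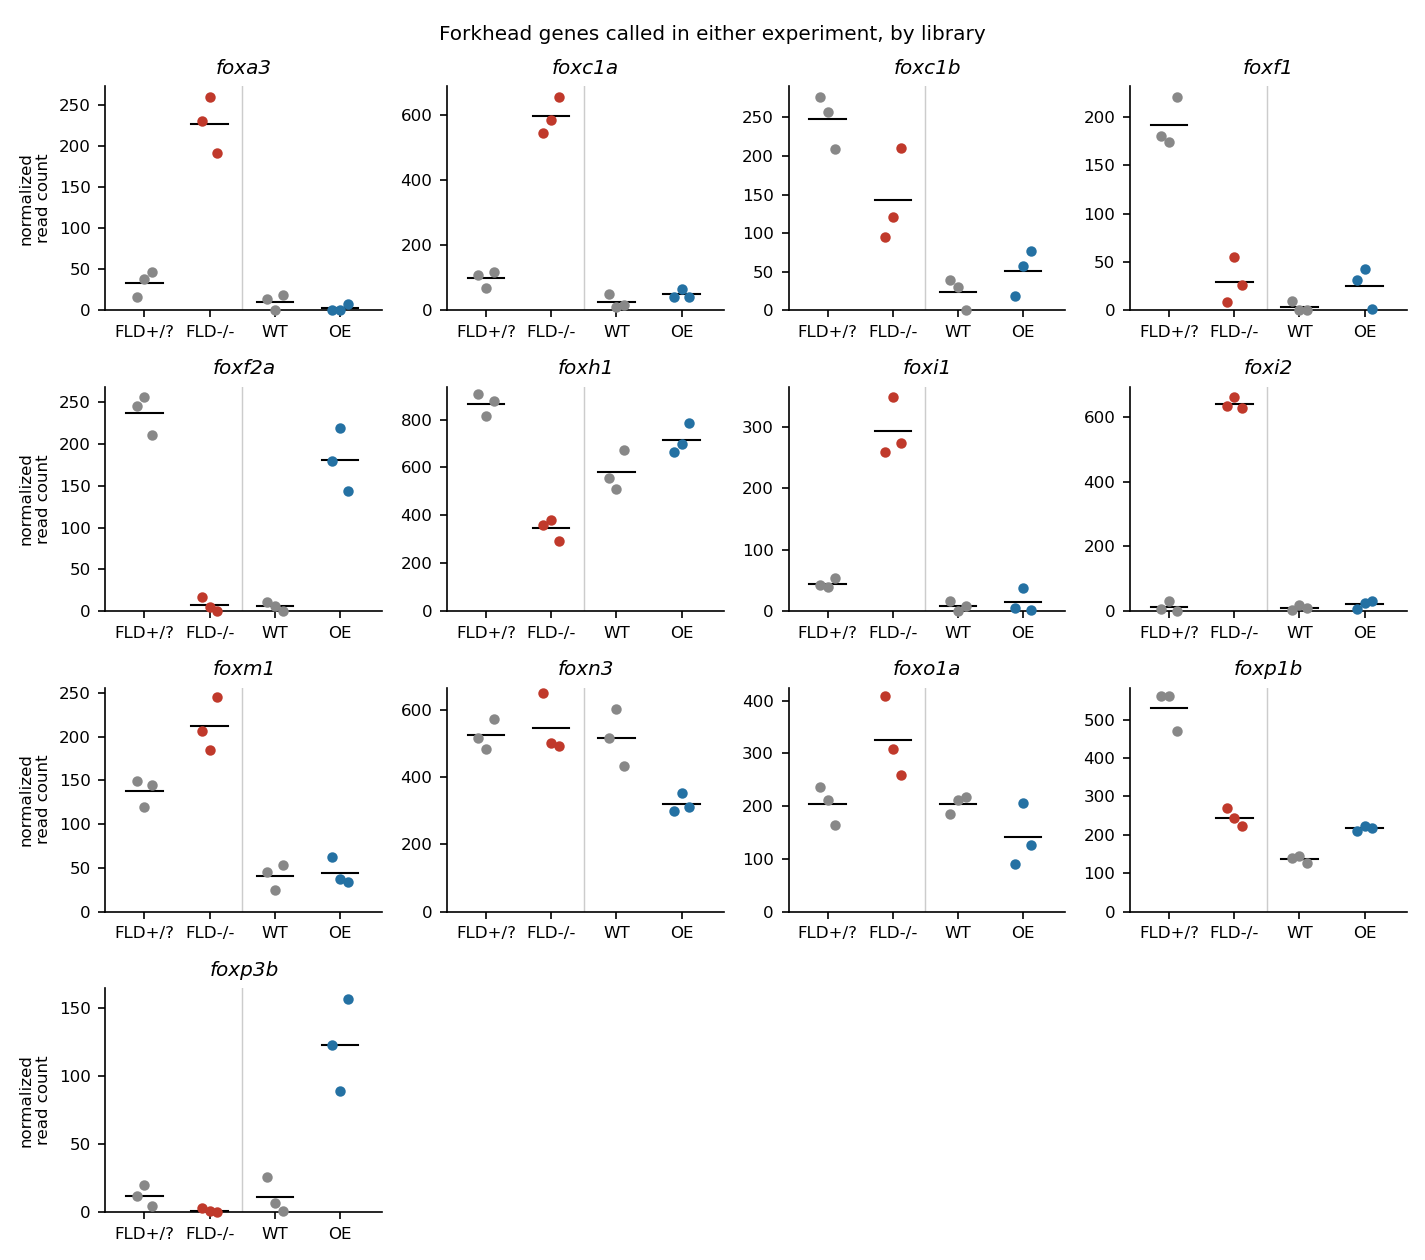
Normalized read count (vertical axis, linear from 0, its range set for each gene) of each of the 13 forkhead genes called in either experiment, with the 3 replicates of *hand2 FLD*+/?, *hand2 FLD*-/-, WT and *hand2* OE as points and the mean as a line. *foxf2a* is at 211 to 256 in *hand2 FLD*+/?, at 0 to 17 in *hand2 FLD*-/- and WT, and at 144 to 219 in *hand2* OE.

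The duplicated FoxC genes moved in opposite directions in the mutants. *foxc1a* (ENSDARG00000091481, chromosome 2, 686873 to 689047), which acts in zebrafish somites and vascular development, stood at 107, 68 and 118 in *hand2 FLD*+/? and at 545, 587 and 658 in *hand2 FLD*-/-. The mutant values were all above the sibling values, with means 6.11-fold apart. The log2 fold change was 2.63 (SE 0.20, limma adjusted p = 2.1e-05). *foxc1b* (ENSDARG00000055398, chromosome 20, 26702377 to 26704331) went from 277, 257 and 209 in the *hand2 FLD*+/? libraries to 95, 121 and 211 in the *hand2 FLD*-/- libraries. Here the groups overlapped, since mutant replicate 3 lay above sibling replicate 3. The log2 fold change of -0.87 (SE 0.27, adjusted p = 0.0402) passed the threshold narrowly, and the call was lost when *hand2 FLD*+/? replicate 1 or 2 or *hand2 FLD*-/- replicate 1 or 2 was omitted (adjusted p between 0.106 and 0.119), and also without the trend (0.123).

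Neither FoxC gene was called in *hand2* OE. *foxc1a* was at 51, 9 and 17 in WT and at 42, 64 and 42 in *hand2* OE, a difference of 1.23 (SE 0.64, limma adjusted p = 0.327). *foxc1b* was at 39, 30 and 0 in WT and at 19, 57 and 77 in *hand2* OE, a difference of 2.06 (SE 1.32, adjusted p = 0.430). Both pairs of groups overlapped.

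Markers of endothelial and endocardial cells, in which *foxc1a* is also known to be made, rose in the same mutant libraries. Of the 12 genes of that list, 11 were tested and 9 rose, where 9.09% of all genes were called up, and none fell. Their summed value was 1710 to 1934 in *hand2 FLD*+/? and 6119 to 6424 in *hand2 FLD*-/-, and no marker of the list was at 0 throughout. *tie1*, a receptor of endothelial cells, had the largest called rise of the list, at 3.01 (SE 0.36, limma adjusted p = 2.78e-04). In *hand2* OE none of the 12 tested was called by limma and none had an unadjusted p under 0.05, with sums of 653 to 777 in WT and 742 to 1111 in *hand2* OE. The part of endothelial or endocardial cells in the *foxc1a* values was not tested.

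*foxc1a* and *foxf2a* lie near each other on chromosome 2, with *ftr93* between them. *foxc1b* and *foxf2b* are neighbours on chromosome 20, and each group has a *foxq1* gene. The start of *foxc1a* lies 27.4 kb from that of *foxf2a* and the start of *foxq1a* 5.74 kb from it, all on the minus strand. On chromosome 20 the start of *foxc1b* lies 12.3 kb from that of *foxf2b* and the start of *foxq1b* 6.10 kb from it, all on the plus strand. In the mutants *foxc1a* rose while the nearby *foxf2a* fell, and *ftr93* between them was not called (-0.90, SE 1.07, limma adjusted p = 0.571). On chromosome 20 *foxc1b* fell, and the difference of its neighbour *foxf2b* was positive and not called. *foxq1a* was at or under 10 in all 12 libraries. *foxq1b*, listed in the mutant table only, was at 0, 4 and 0 in *hand2 FLD*+/? and at 32, 15 and 0 in *hand2 FLD*-/- (2.24, SE 1.39, limma adjusted p = 0.266).

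Other genes within 300 kb of these clusters mostly were not called. Around *foxf2a*, 4 other genes were tested in each experiment and limma called none. Around *foxf2b*, 19 other genes were tested in the mutant experiment. None rose and 3 fell, where 9.09% of all genes were called up and 9.43% down. These were *stx11b.1* (-4.28, SE 0.50, limma adjusted p = 2.35e-04), *mylk4b* (-1.08) and *ahsa1a* (-0.66). On overexpression 1 of 17 rose, against 2.53% of all genes called up. This was *akap12b* (0.88, SE 0.10, limma adjusted p = 0.00241).

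**Figure D3:**
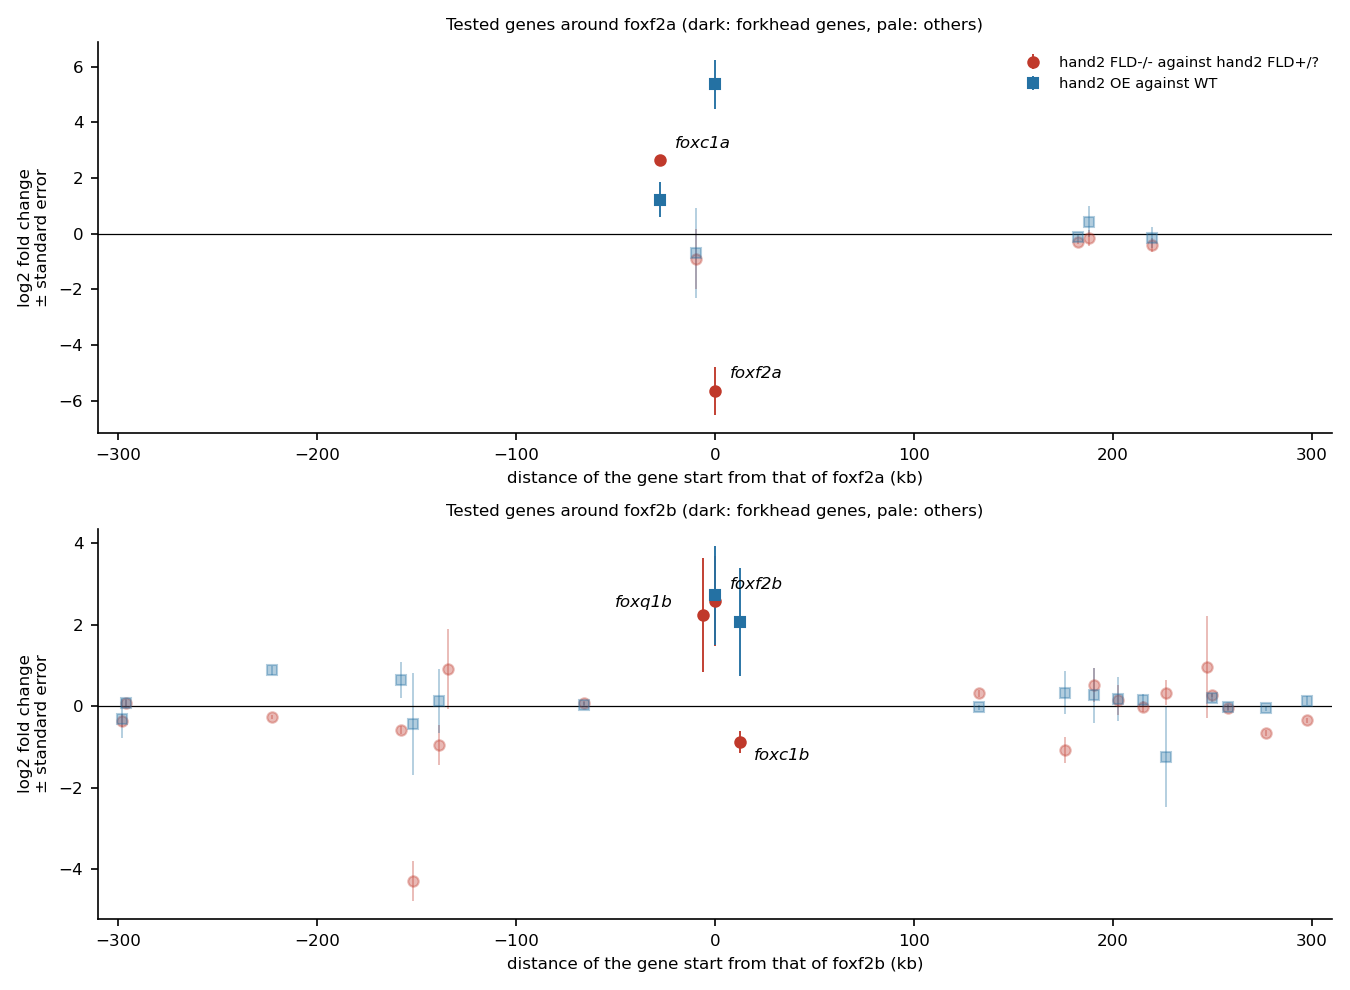
Log2 fold change (vertical axis, error bars are standard errors) of the tested genes within 300 kb of *foxf2a* and *foxf2b*, plotted against the distance of their starts from the start of that gene (kb, horizontal axis) in both experiments (red circles for the mutants, blue squares for *hand2* OE, pale for genes outside the family). *foxc1a*, 27.4 kb from *foxf2a*, is at 2.63 in the mutants where *foxf2a* is at -5.64, and *foxc1b*, 12.3 kb from *foxf2b*, is at -0.87 where *foxf2b* is at 2.57.

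*foxl1* (chromosome 18), a gene of gut mesenchyme in mouse that acts downstream of Hedgehog there, was low in all groups, with no value above 16. Of 11 tested genes of the Hedgehog pathway, known in mouse to act upstream of Foxf1 and Foxl1, 1 fell in *hand2 FLD*-/- and 1 rose in *hand2* OE. Among all genes 9.43% were called down in the mutants and 2.53% up in *hand2* OE. The called gene was *hhip*, which encodes a Hedgehog-binding inhibitor, in both experiments. *hhip* stood at 2001, 1992 and 1805 in *hand2 FLD*+/? and 948, 921 and 789 in *hand2 FLD*-/- (-1.13, SE 0.08, limma adjusted p = 1.0e-05). In WT it stood at 119, 66 and 96, and in *hand2* OE at 883, 1115 and 759 (3.30, SE 0.23, adjusted p = 2.01e-04). Both differences had groups that lay apart. In the mutants *gli3* (-0.46), *boc* (-0.36) and *gli2a* (0.33) also passed the adjusted p, under the fold threshold. The median of the pathway was -0.19 in the mutants and 0.22 in *hand2* OE.

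*foxh1* (ENSDARG00000055630, chromosome 12, 13722385 to 13730501), which carries Smad2 to DNA when Nodal signals, fell in the mutants. Its values were 907, 815 and 876 in *hand2 FLD*+/? and 359, 382 and 294 in *hand2 FLD*-/-. Every mutant library lay below every sibling library. This was a log2 fold change of -1.33 (SE 0.11, limma adjusted p = 2.6e-05). In *hand2* OE, *foxh1* was at 663, 697 and 786 against 558, 511 and 673 in WT, overlapping groups with a difference of 0.31 (SE 0.12, adjusted p = 0.172).

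The other genes of the Nodal pathway fell with *foxh1* or were not called in the mutants. Of 16 tested, 6 fell, where 9.43% of all genes were called down, and none rose. The median log2 fold change was -0.48, and 11 of the 16 had an unadjusted p under 0.05 in limma. *spaw*, the left-sided Nodal ligand, stood at 504, 600 and 491 in *hand2 FLD*+/? and 9, 36 and 8 in *hand2 FLD*-/- (-5.15, SE 0.48, adjusted p = 6.6e-05 in limma). The ligand *ndr2*, the antagonists *lft1* and *lft2* and the transducer *smad3b* were among the others that fell. Of those not called, *tdgf1* (-0.50), *gdf3* (-0.47), *acvr1ba* (-0.46) and *acvr2aa* (-0.39) passed the adjusted p under the fold threshold. In *hand2* OE, *spaw* rose from 13, 3 and 9 in WT to 104, 151 and 205 (4.17, SE 0.57, limma adjusted p = 0.00468). The ligand *gdf3* rose too, at 1.26 (SE 0.22, adjusted p = 0.0126), and the other 14 were not called, with a median of 0.08 over the list. An unadjusted limma p under 0.05 was reached by 7 of the 16. *tdgf1* (0.36, limma adjusted p = 0.0101) passed the adjusted p under the fold threshold.

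FoxP factors repress transcription as dimers, and Foxp1 and Foxp4 are known from mouse heart development. *foxp1b* (ENSDARG00000014181, chromosome 6, 43602143 to 43890462) stood at 562, 561 and 471 in *hand2 FLD*+/? and at 269, 243 and 223 in *hand2 FLD*-/-. The groups lay apart, and the log2 fold change was -1.11 (SE 0.12, limma adjusted p = 1.21e-04). In WT it stood at 140, 145 and 128 and in *hand2* OE at 210, 222 and 218, again apart. That log2 fold change was 0.65 (SE 0.16, adjusted p = 0.0468). This second call was lost on leaving out any of the 6 libraries, with adjusted p-values between 0.0937 and 0.124 and log2 fold changes between 0.60 and 0.69.

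*foxp3b* (ENSDARG00000078279, chromosome 8, 23436411 to 23454577), a duplicate of the gene of regulatory T cells, rose on overexpression from a low level. It stood at 26, 7 and 1 in WT and at 123, 89 and 157 in *hand2* OE, so that every *hand2* OE library lay above every WT library. This rise was 4.0 on the log2 scale (SE 0.86, limma adjusted p = 0.0291), and the means were 10.9-fold apart. The call was lost without WT replicate 2 or without any *hand2* OE replicate (adjusted p between 0.0744 and 0.110), and the log2 fold change was 4.92 without WT replicate 1 and 3.04 without WT replicate 3. In *hand2 FLD*+/?, *foxp3b* stood at 12, 20 and 5, and in *hand2 FLD*-/- at 3, 1 and 0. Those groups did not overlap either, but the difference of -2.56 (SE 0.88, adjusted p = 0.0571) was not called, and it was called without *hand2 FLD*+/? replicate 3 (adjusted p = 0.0487).

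Leukocyte markers were summed beside *foxp3b*, though the list held no marker particular to T cells. In the gain-of-function experiment 3 of the 5 were tested and limma called none, with 2 at an unadjusted p under 0.05, and the sum was 36 to 420 in WT and 277 to 813 in *hand2* OE. In the mutant experiment all 5 were tested and 1, *lyz*, rose, with sums of 2710 to 3050 in *hand2 FLD*+/? and 2391 to 2715 in *hand2 FLD*-/-. Their part in the *foxp3b* values was not tested.

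*foxp4* changed by less than 1.5-fold in both experiments and passed the adjusted p in both. Its values were 2566, 2735 and 3031 in *hand2 FLD*+/? and 2008, 1919 and 1870 in *hand2 FLD*-/-, with a difference of -0.52 (SE 0.06, limma adjusted p = 2.24e-04). In WT they were 2243, 2200 and 2098 and in *hand2* OE 2421, 2521 and 2465, with a difference of 0.18 (SE 0.04, adjusted p = 0.0352). Both pairs of groups lay apart. *foxp1a*, the duplicate of *foxp1b*, was at 791, 726 and 827 in *hand2 FLD*+/? and at 1017, 1008 and 980 in *hand2 FLD*-/-, a difference of 0.36 (SE 0.07, adjusted p = 0.00296) that was also under the fold threshold. Its difference in *hand2* OE was 0.15 (adjusted p = 0.529). *foxp2* stayed between 14 and 41 in all libraries, and *foxp3a* reached at most 9.

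The FoxI genes, which act in zebrafish in the otic placode, pharyngeal ectoderm and skin ionocytes, held the largest rise. *foxi2* (ENSDARG00000069715, chromosome 13, 13578552 to 13581133) stood at 7, 30 and 0 in *hand2 FLD*+/? and at 633, 660 and 627 in *hand2 FLD*-/-. The mutant libraries lay close to each other and far above the siblings, with means 51.9-fold apart. On the log2 scale this was 6.67 (SE 0.99, limma adjusted p = 9.52e-04), and it was 5.35 without sibling replicate 3 and 7.82 without sibling replicate 2. In WT it stood at 4, 17 and 8 and in *hand2* OE at 5, 25 and 32, overlapping groups (0.89, SE 0.90, adjusted p = 0.644).

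*foxi1* (ENSDARG00000104566, chromosome 12, 43662980 to 43664682), which induces the otic placode in zebrafish, stood at 42, 39 and 53 in *hand2 FLD*+/? and at 259, 348 and 274 in *hand2 FLD*-/-. The mutant values were again all higher, with means 6.57-fold apart and a log2 fold change of 2.69 (SE 0.21, limma adjusted p = 2.2e-05). On overexpression it was at 16, 0 and 8 in WT and at 4, 37 and 1 in *hand2* OE (0.44, SE 1.47, adjusted p = 0.908). *foxi3a* and *foxi3b*, which specify ionocytes in zebrafish, were listed in the mutant table only. *foxi3a* was above 0 in 1 mutant library, and *foxi3b* was at 38 in sibling replicate 2 and at or under 2 in the other libraries.

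Of 12 genes of the otic and placodal fields tested in the same mutant libraries, 5 rose (*pax2a*, *dlx3b*, *eya1*, *six4b* and *gata3*) and 1 fell (*sox9b*), and the other 6 were not called, with a median of 1.55. Among all genes 9.09% were called up and 9.43% down. The summed value was 590 to 841 in *hand2 FLD*+/? and 1764 to 1977 in *hand2 FLD*-/-. The largest called rise was that of *six4b*, from 17, 17 and 0 in *hand2 FLD*+/? to 159, 216 and 194 in *hand2 FLD*-/- (4.78, SE 0.98, limma adjusted p = 0.00570). Genes of this list, *eya1* and *gata3* among them, are also known outside placodes. In *hand2* OE none of the 12 was called by limma and none had an unadjusted p under 0.05, with a median of -0.04.

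Genes of ionocytes did not share 1 direction. In the mutants 2 of 9 tested rose (*slc4a1b*, at 3.73, and *trpv6*, at 2.55, both at 30 or less in every library) and 1 fell (*slc4a4b*, at -1.63), with a median of 0.39. In *hand2* OE none of 6 was called by limma, with 1 at an unadjusted p under 0.05. Epidermal markers summed to 3951 to 6134 in *hand2 FLD*+/? and 3397 to 3671 in *hand2 FLD*-/-, with 1 of 8 tested up (*cdh1*, 0.76) and 1 down (*krt8*, -0.84). *krt8* alone stood at 2710, 2860 and 2766 in *hand2 FLD*+/? and at 1408, 1657 and 1607 in *hand2 FLD*-/-. Much of the difference between these sums thus lay in that gene. The highest sibling sum was that of replicate 2, where *krt4* was at 1469 against 303 and 433 in the other siblings. The same library held the 38 of *foxi3b*. The epidermal sum was 1810 to 3103 in WT and 2519 to 5380 in *hand2* OE, where *krt8* (0.77) was the only one of 9 called. Replicate 2 held the highest *hand2* OE value of each epidermal marker except *krt8* and *anxa1c*, with *krt4* at 1735 against 220 and 810. The part of placodal or epidermal cells in the FoxI values was not tested.

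*foxa3* (ENSDARG00000012788, chromosome 18, 46350574 to 46354269) belongs to the FoxA factors, which open chromatin in endoderm and in the axial mesoderm. It stood at 16, 38 and 46 in *hand2 FLD*+/? and at 230, 260 and 191 in *hand2 FLD*-/-. The groups lay apart, with means 6.81-fold apart and a log2 fold change of 2.85 (SE 0.37, limma adjusted p = 4.67e-04). With overexpression the gene was at 13, 0 and 18 in WT and at 0, 0 and 7 in *hand2* OE (-1.69, SE 1.54, adjusted p = 0.600). *foxa1* and *foxa2* did not rise with it. *foxa1* had sibling values of 19, 21 and 16 and mutant values of 12, 9 and 1, groups that did not overlap, with a difference of -1.62 (SE 0.77, adjusted p = 0.151), and *foxa2* was at 15, 20 and 24 and at 6, 4 and 25.

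Markers of the tissues that make FoxA factors were set beside these values. Of 5 notochord and floor plate markers tested in the mutants 1 rose, *tbxta*, from 86, 23 and 30 to 867, 718 and 834 (4.32, SE 0.40, limma adjusted p = 6.5e-05). The list summed to 105 to 217 in *hand2 FLD*+/? and 947 to 1740 in *hand2 FLD*-/-. The highest mutant sum, that of replicate 2, also held *col2a1a* at 913, which was at 69 and 51 in the other mutant libraries. The list members *shha* and *shhb*, which mark the floor plate and notochord, were at 24 or less in every library of the experiment. In *hand2* OE none of 4 tested was called, with 1 at an unadjusted p under 0.05, and the sum was 13 to 178 in WT and 85 to 835 in *hand2* OE. The highest *hand2* OE sum, again in replicate 2, held *col2a1a* at 606. Of the endoderm markers, 3 were tested in each experiment and limma called none, with 1 at an unadjusted p under 0.05 in each. That gene, *gata5*, passed the adjusted p in both experiments and missed only the fold threshold. It was at -0.52 in the mutants (limma adjusted p = 9.9e-05) and at 0.36 in *hand2* OE (adjusted p = 0.0279). Most of their sum, 2139 to 2246 in *hand2 FLD*+/? and 1456 to 1682 in *hand2 FLD*-/- and 973 to 1148 in WT and 1224 to 1428 in *hand2* OE, was *gata5*, which cardiomyocytes also make. *sox17* and *sox32* were each at 29 or less in all mutant and sibling libraries. The part of either tissue in the *foxa3* values was not tested.

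*foxm1* (ENSDARG00000003200, chromosome 4, 5807964 to 5831522) drives genes of G2 and mitosis. It stood at 149, 120 and 145 in *hand2 FLD*+/? and at 206, 185 and 245 in *hand2 FLD*-/-. The groups did not overlap, and the log2 fold change of 0.61 (SE 0.17, limma adjusted p = 0.0233) was just past the fold threshold. The call was lost without sibling replicate 2 or mutant replicate 1 or 3 (adjusted p between 0.0561 and 0.0867). In WT it was at 45, 25 and 53 and in *hand2* OE at 62, 37 and 34, overlapping groups (0.13, SE 0.46, adjusted p = 0.917).

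The G2 and M phase genes and *foxm1* were called in different experiments. In the mutants limma called none of 19, with 8 at an unadjusted p under 0.05 and a median of 0.14. Several of these passed the adjusted p and fell short of the fold threshold, most of them above the siblings. The split between *foxm1* and the list in the mutants thus rests in part on that threshold. In *hand2* OE 9 of 19 rose, where 2.53% of all genes were called up, and none fell, with a median of 0.76. Among them the kinesin *kif20a* went from 122, 138 and 106 in WT to 272, 420 and 376 in *hand2* OE (1.52, SE 0.20, limma adjusted p = 0.00405). The checkpoint kinase *bub1* had the largest called rise, at 1.63 (SE 0.39, adjusted p = 0.0425). The list summed to 4986 to 5229 in WT and 7340 to 9946 in *hand2* OE, and to 18883 to 20119 in *hand2 FLD*+/? and 21021 to 22103 in *hand2 FLD*-/-.

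FoxO factors are held out of the nucleus by insulin signaling and act in stress and metabolism. *foxo1a* (ENSDARG00000099555, chromosome 15, 3284416 to 3379041) stood at 237, 211 and 164 in *hand2 FLD*+/? and at 409, 308 and 259 in *hand2 FLD*-/-, groups that did not overlap. The log2 fold change was 0.66 (SE 0.20, limma adjusted p = 0.0317), and the call was lost without sibling replicate 2 or 3 or mutant replicate 1 or 2 (adjusted p between 0.0647 and 0.107). In WT it was at 185, 211 and 217 and in *hand2* OE at 90, 206 and 126 (-0.62, SE 0.29, adjusted p = 0.266), with overlap.

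The other FoxO genes were not called. *foxo4* passed the adjusted p in *hand2* OE under the fold threshold, at 506, 465 and 499 against 704, 670 and 616 in WT (-0.43, SE 0.09, limma adjusted p = 0.0222). It was at 575, 582 and 655 in *hand2 FLD*+/? and at 489, 530 and 510 in *hand2 FLD*-/- (-0.24, SE 0.08, adjusted p = 0.0534). The case libraries of both experiments thus lay below their controls. *foxo3a* lay above the siblings in the mutants (mean 592 against 421, 0.56, adjusted p = 0.102) and below WT in *hand2* OE (400 against 554, -0.49, adjusted p = 0.139), each time without overlap. *foxo3b* stood between 1146 and 1564 in all libraries, and the differences were 0.06 and -0.18. *foxo1b* and *foxo6b* were at 9 or less. Of 16 tested genes known in mammals as FoxO targets, 1 fell in the mutants (*ccng2*, -0.59, SE 0.07, limma adjusted p = 2.57e-04) and none rose. Among all genes 9.43% were called down. An unadjusted p under 0.05 was reached there by 7 of the 16. Apart from *ccng2*, the lowest limma adjusted p was 9.7e-04, for a difference of -0.53 that was under the fold threshold. In *hand2* OE limma called none of 16, with 5 at an unadjusted p under 0.05.

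*foxn3* (ENSDARG00000012833, chromosome 17, 16564921 to 16734329), a repressor known from cell cycle checkpoints, fell in *hand2* OE. It was at 516, 602 and 434 in WT and at 299, 353 and 311 in *hand2* OE, groups that did not overlap. The log2 fold change was -0.68 (SE 0.14, limma adjusted p = 0.0232), and the call was lost on leaving out replicate 1 or 2 of WT and also on leaving out replicate 1 or 3 of *hand2* OE (adjusted p between 0.0647 and 0.0798). In the mutant experiment the sibling values were 516, 483 and 574 and the mutant values 649, 501 and 492, with a difference of 0.05 (adjusted p = 0.777).

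The other broadly made genes, *foxj2*, *foxj3*, *foxk1*, *foxk2* and *foxn2b*, were well above the filter in every library and none was called in either experiment. *foxk1* and *foxk2*, whose products bind chromatin in many cells, lay above the siblings in the mutants without overlap. *foxk1* had means of 521 and 684 (0.40, SE 0.12, limma adjusted p = 0.0382, under the fold threshold), and *foxk2* had means of 614 and 765 (0.33, SE 0.12, adjusted p = 0.0612). In *hand2* OE their differences were -0.25 (adjusted p = 0.430) and -0.28 (adjusted p = 0.260). *foxj2* (means of 223 and 210 in the mutant experiment, 176 and 167 in the other), *foxj3* (651 and 644, 666 and 585) and *foxn2b* (454 and 490, 344 and 366) had overlapping groups throughout.

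The 13 genes of neural and neural crest tissue (FoxB, FoxD and FoxE genes and *foxn4* among them) were low, and limma called none of the 10 tested in either experiment. An unadjusted p under 0.05 was reached by 2 in the mutants and by 3 in *hand2* OE. In the mutants *foxb1b* (7, 9 and 13 against 25, 14 and 39, adjusted p = 0.118) and *foxn4* (23, 17 and 15 against 62, 41 and 25, adjusted p = 0.0958) lay above the siblings without overlap. In *hand2* OE, *foxb1b* was at 12, 81 and 4 against 0, 2 and 0 in WT (3.60, SE 1.28, adjusted p = 0.144). The neural crest gene *foxd3* was at 23, 23 and 11 against 0, 1 and 9 (2.81, SE 1.07, adjusted p = 0.174). In the comparisons just given the groups did not overlap, but no value in them exceeded 81. Differences of the other sign occurred too, as in *foxd2*, at 0, 24 and 0 in *hand2* OE against 12, 14 and 35 in WT (-2.71, SE 1.35, limma adjusted p = 0.302), where the groups overlapped. The highest value of the 13 genes was 131, in *foxd1* in *hand2* OE replicate 2. The value of 81 in *foxb1b* came from the same library.

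Neural markers summed to 1378 to 2158 in *hand2 FLD*+/? and 1636 to 1892 in *hand2 FLD*-/-, with *sox2* up (1.81) and *elavl3* (-0.92) and *her4.1* (-0.87) down among 9 tested. The neural sum was 1467 to 1745 in WT and 1472 to 2811 in *hand2* OE, where limma called none of 9, with 2 at an unadjusted p under 0.05. Replicate 2 was the highest *hand2* OE library for every neural marker. Neural crest markers summed to 660 to 868 and 544 to 796 in the mutant experiment, with 1 of 6 down (*snai1b*, -0.66), and to 123 to 205 and 174 to 533 in the other, where none of 5 was called and 1 had an unadjusted p under 0.05. Replicate 2 was also the highest *hand2* OE library for each neural crest marker except *snai1b*. The part of these cells in the low values was not tested. Among the markers of erythroid cells, skeletal muscle and hatching gland, limma called *myod1* up (3.34) in the mutants and none in *hand2* OE.

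Foxj1 factors drive the genes of motile cilia, and *foxj1a* and *foxj1b* were at 41 or less in every library. In the mutants *foxj1b* stood at 5, 22 and 28 against 7, 0 and 0 (2.99, SE 1.06, limma adjusted p = 0.0628). *foxj1a* was at 9, 17 and 1 in *hand2* OE and at 0 in all WT libraries, with a mean under the filter. Limma called none of 10 motile cilia genes tested in the mutants, with 2 at an unadjusted p under 0.05 and a median of -0.33. It called none of 5 in *hand2* OE, with 1 under 0.05. The thymus gene *foxn1* was at 11 or less, *foxl2b* reached 41 in *hand2* OE replicate 2 and *foxl2a* 19 in 1 mutant library.

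In the mutant experiment 8 forkhead genes were under the filter (among them *foxe1*, *foxi3a*, *foxn1*, *foxo1b*, *foxo6b*, *foxp3a* and *foxq1a*), with no value above 9. In the gain-of-function experiment 9 were (among them *foxj1a*, *foxl1*, *foxn1*, *foxo1b*, *foxo6b*, *foxp3a* and *foxq1a*), with no value above 17. These genes were not tested.

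Duplicates were also compared within each library as the log2 ratio of the a gene to the b gene, after adding 1 to each value, for the pairs with both genes tested. The pairs were not chosen by their values, but the ratio was computed after the changes of single genes were known. In the mutant experiment 4 of 8 ratios had groups that did not overlap, *foxf2*, *foxc1*, *foxp1* and *foxo3*, each with an exact permutation p = 0.1 and 0.2 after adjustment over the 8. For *foxf2* and *foxp1* this followed from the single genes, since all mutant values lay below the siblings in one copy and above in the other. The ratios of these pairs thus add no separate evidence. Among all single genes of that experiment the share without overlap was 44.3%, and no such share was taken over ratios. The *foxf2* ratio was 4.94 ± 2.46 (SD, n = 3) in *hand2 FLD*+/? and -3.27 ± 1.72 in *hand2 FLD*-/-. The *foxc1* ratio was -1.36 ± 0.54 and 2.14 ± 0.45. The *foxf2* ratio thus differed by -8.21 between mutants and siblings and the *foxc1* ratio by 3.50. The size of the *foxf2* difference depends on low values and on the 1 added to them. *foxf2b* was at 14, 30 and 0 in the siblings and *foxf2a* at 17, 5 and 0 in the mutants. The *foxp1* ratio was 0.56 ± 0.23 and 2.03 ± 0.11 and the *foxo3* ratio was -1.66 ± 0.59 and -1.16 ± 0.08.

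The sums of the pairs moved differently. *foxp1a* and *foxp1b* together were at 1287 to 1353 in *hand2 FLD*+/? and at 1203 to 1286 in *hand2 FLD*-/-, adjacent ranges that did not overlap. The *foxc1* sum was 325 to 384 in the siblings and 640 to 869 in the mutants, and the *foxf2* sum was 211 to 286 and 35 to 79. In the gain-of-function experiment the *foxp1* ratio was 2.03 ± 0.18 (SD, n = 3) in WT and 1.53 ± 0.19 in *hand2* OE, without overlap. Its exact permutation p was 0.1, and 0.2 after adjustment over 6 pairs. The *foxf2*, *foxc1* and *foxo3* ratios overlapped there, and the *foxb1* ratio, from low values, did not. Among all single genes of that experiment the share without overlap was 26.1%, again not a share of ratios.

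**Figure D4:**
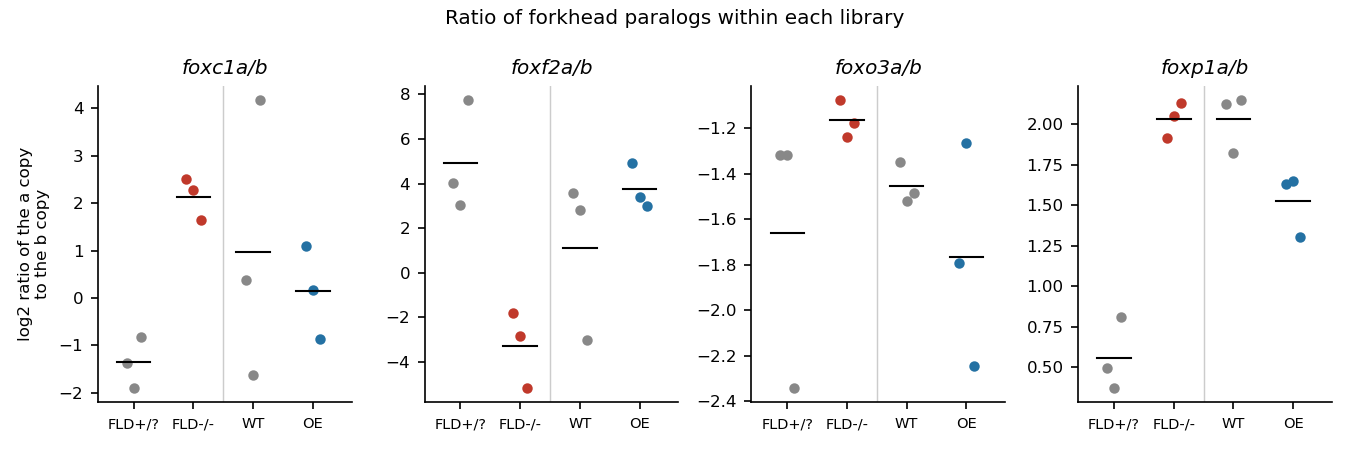
Log2 ratio of the a gene to the b gene (value + 1, vertical axis) in each library of both experiments for the pairs *foxc1*, *foxf2*, *foxo3* and *foxp1*, with each replicate as a point and the mean as a line. The pairs shown are those whose ratios did not overlap between mutants and siblings. In the mutants the *foxf2* ratio has a mean of -3.27 against 4.94 in the siblings and the *foxc1* ratio a mean of 2.14 against -1.36.

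The control groups of the 2 experiments differed in several of these genes, although both were sorted at 20 hpf. The tables were normalized separately, so the levels are set side by side with no test. *foxf2a* had a mean of 238 normalized counts in *hand2 FLD*+/? and 5.67 in WT, *foxf1* had 192 and 3.00, *foxc1b* had 248 and 23.0, and *foxp1b* had 531 and 138. *foxo3b* (1271 and 1514), *foxj3* (651 and 666) and *foxn3* (524 and 517) were closer. For *foxf2a* and *foxf1*, the WT values of the gain-of-function experiment were thus near the values of the *hand2 FLD*-/- libraries rather than those of their siblings.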

How the data were processed

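RNA of sorted *myl7* reporter-positive cells was measured in 2 experiments of 6 libraries. Reads were trimmed by the authors (Trimmomatic 0.39), mapped to danRer11 (STAR 2.7.10a) and counted over exons (featureCounts 2.0.2), leaving out reads that overlapped several genes or aligned to several places, and the authors tested genes with DESeq2 1.30.1. Use of strand is not given in the sources used here, so that overlapping and antisense genes are less certain. Each deposited value is a score, a read count that the authors scaled within each experiment and then rounded, not a raw count. No raw counts were recovered, and the reads carry no molecular identifiers. Depth was estimated from whole numbers skipped or doubled among the low values.

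Values were analysed as log2(value + 1) in R 4.3.3 with limma 3.58.1 (lmFit, eBayes with trend), each experiment alone, where the gene mean reached 5. Calls were made at a Benjamini-Hochberg adjusted p of 0.05 or less and a fold change of at least 1.5. The steps were tested on simulated data. All columns were matched to samples by the names in the labels, and 0 were left over. The study describes the 3 libraries of a group as biologically independent.

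Forkhead genes called in either experiment were named with the value of each library. Others were named where a group mean reached 100 or the groups did not overlap, except single genes of the family and of the lists that are counted but not reported here, and some low duplicates and genes of a named role were added after their values were seen. The members, gene lists and marker lists were chosen with earlier results of these data known. Alternatives were other pseudocounts (0.5 and 5), filters (none, and a mean of 20), rescalings, fold thresholds (none and 2), limma without trend, a replicate block and each library left out. IDs and positions were taken from the deposited tables, and no sequence was printed.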

Additional observations from a re-analysis of the deposited data

How the results depend on the processing

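In *hand2 FLD*-/- against *hand2 FLD*+/?, the 11 forkhead genes called became 8 to 14 over the 16 alternatives. With 1 library left out at a time the count was 8 to 12, with 4 to 8 up and 4 to 6 down. In *hand2* OE against WT, the 4 called (3 up, 1 down) became 0 (0 up, 0 down) without the trend in limma, where 9 of 39 had an unadjusted p under 0.05. They became 2 (0 down) at a fold change of 2, and 2 genes were called down with no fold threshold. With 1 library left out at a time, limma called 1 to 3, with 0 to 2 up and 0 to 1 down. Over all genes, the 3310 calls of the mutant experiment became 2105 at a fold change of 2 and 5292 with no fold threshold. The 677 calls of *hand2* OE, among 16510 genes tested, became 203 without trend and 357 to 569 with 1 library left out. They became 387 at a fold change of 2 and 1094 with no fold threshold, where 6 of the 39 forkhead genes passed. *foxp1b* in *hand2* OE also lost its call without a filter (adjusted p = 0.0571) and with rescaling by trimmed means (0.0520). Both values are from limma.

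A fit with the replicate number as a block called 10 forkhead genes in the mutants, where *foxc1b* lost its call (limma adjusted p = 0.0740), and 2 in *hand2* OE (1 up), where *foxp1b* and *foxp3b* lost theirs, and 3186 and 466 of all genes. The deviations of libraries with the same number had correlations of 0.015 to 0.034 and -0.098 to -0.020, all under 0.1, so that the numbers were not taken to pair the samples. In the mutant experiment each library correlated best with its own number.

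For the 46 single differences followed through 728 alternatives, 669 kept direction and side of the threshold, 42 lost the call, 9 gained it and 8 changed sign. The sign changed only in differences that were not called. *foxj3* in the mutants went to 0.024 with equal totals, and ranged from -0.081 to 0.065 with 1 library left out, with *hand2 FLD*+/? replicate 2 (0.010) and *hand2 FLD*-/- replicate 3 the omissions that turned it. *foxn3* in the mutants ranged from -0.075 to 0.12 likewise, turned by omission of *hand2 FLD*-/- replicate 1 or *hand2 FLD*+/? replicate 2 (-0.0036). In *hand2* OE the ranges were -0.41 to 0.21 for *foxj2*, turned by *hand2* OE replicate 3, -0.30 to 0.018 for *foxj3*, turned by WT replicate 2, and -0.097 to 0.28 for *foxn2b*, turned by WT replicate 3. The cause of these changes was not tested. With 3 libraries a group, genes at a few normalized counts have wide errors.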
